A study of Danio rerio with 8 samples.

Results

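The caudal genes (cdx1a, cdx1b and cdx4) and the even-skipped genes (eve1, evx1 and evx2) encode homeodomain transcription factors, and these 6 genes were picked out by symbol from the 32520 genes of the table. Where a symbol had several rows, the one with the highest mean was taken. RNA-seq was performed on 8 pools of 75 whole AB strain zebrafish embryos with their yolk, 4 control pools in 0.5% DMSO and 4 pools treated with KT09, the ethanolic stem extract of Mahonia bealei, at 100 µg/ml. The extract was itself dissolved in DMSO before dilution in E3 medium. Treatment started at 2 hpf (hours post fertilization) with 25 embryos per well, and the labels give 8 hpf, during gastrulation, for collection. The study's text gives a later hour in its discussion and describes delayed epiboly at this dose, so the stage of treated and control embryos at collection cannot be told apart from the treatment.

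Caudal proteins bind DNA through a homeodomain and switch on hox genes of the trunk and tail, in zebrafish as in other vertebrates. In zebrafish, cdx4 (kugelig) is needed for a tail of normal length and for the formation of blood, cdx1a acts together with cdx4 in the posterior body, and cdx1b is known from endoderm and gut. Even-skipped genes are the vertebrate relatives of a Drosophila segmentation gene. In zebrafish gastrulae eve1 is expressed on the ventral and lateral margin and later in the tailbud, in response to Bmp, Wnt and Fgf signals, while evx1 and evx2 are best known from spinal interneurons and fins at later stages.

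The values are the authors' means: read counts were scaled by size factors and then averaged over the pools of a group. They are not divided by transcript length, so levels are compared between groups for 1 gene and not ranked between genes. No values per pool and none of the authors' own standard errors or p-values were used here, so the differences are described without a spread between pools, a standard error or a test. A gene is called higher or lower where the ratio of its treated to its control mean passed 1.5-fold, after 1 was added to each mean, among the 15888 genes with a mean over both groups of 10 or more. By this rule 15.1% of those genes were lower and 13.8% higher in treated embryos. Where the mean was at least 1000, which 3080 genes reached, the shares were 5.06% lower and 8.05% higher. The median log2 ratio of all 15888 genes was 0.0054. In whole embryos, fewer cells of a type and less RNA per cell cannot be told apart.

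Both abundant caudal genes were lower and eve1 was higher in treated embryos. The other 3 members were close to the limit of detection in both groups. Of the 6 members, 3 had a mean of 10 or more, and of these 2 were lower and 1 was higher past 1.5-fold.

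The cdx4 gene (ENSDARG00000036292), whose product sets posterior hox expression, had an authors' mean of 10597 in the control pools and of 5757 in the treated pools. The treated mean was thus 54.3% of the control mean, a log2 ratio of -0.88 or 1.84-fold lower. Of all 15888 genes 8.27% had a lower log2 ratio than cdx4, and of the 3080 genes at a mean of at least 1000, a limit chosen after the values were seen, 1.85% did.

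The cdx1a gene (ENSDARG00000114554), the partner of cdx4 in the posterior body, averaged 3826 in control pools and 1794 in treated pools, again as the authors' means. Its treated mean was 46.9% of its control mean, a log2 ratio of -1.09 or 2.13-fold lower. A lower log2 ratio was found in 5.50% of all 15888 genes and in 1.23% of the abundant ones. The log2 ratios of cdx1a and cdx4 differed by 0.21, with cdx1a the lower, a difference given here with no error. The means of both genes summed to 14423 (control) and 7552 (treated).

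The eve1 gene (ENSDARG00000056012), the margin and tailbud member of the even-skipped group, went the other way. Its authors' mean was 1328 in control pools and 2225 in treated pools, a log2 ratio of 0.74 or 1.67-fold higher. A higher log2 ratio was found in 9.68% of all 15888 genes and in 3.96% of the abundant ones. Relative to cdx4, eve1 was higher in treated than in control embryos by 1.62 on the log2 scale, and relative to cdx1a by 1.84.

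**Figure D1:**
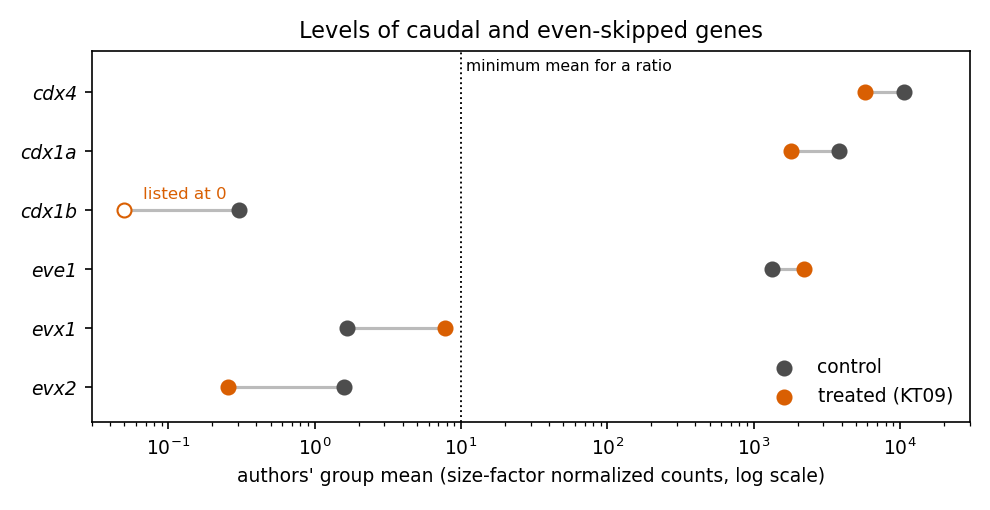
Authors' group means of the 6 caudal and even-skipped genes on a logarithmic axis, with a grey point for control and an orange point for treated embryos, joined by a line. The points of cdx4 and cdx1a lie lower in treated embryos and those of eve1 higher, while cdx1b, evx1 and evx2 lie below the dotted line at a mean of 10, and cdx1b is listed at 0 in treated embryos.

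The evx1 gene (ENSDARG00000099365), a regulator of spinal interneurons, was scarce in both groups, at authors' means of 1.65 (control) and 7.78 (treated). A read counted in 1 pool is worth between 0.218 and 0.305 in the control mean and between 0.215 and 0.255 in the treated mean. The evx1 means therefore stand for 6 or 7 reads over the 4 control pools and 31 to 36 reads over the 4 treated pools. Exact 95% Poisson intervals, taken from the fewest to the most reads possible and covering counting error only, ran from 2.20 to 14.4 reads in control and from 21.1 to 49.8 reads in treated embryos. The intervals did not overlap, but the spread between pools is not included in them. How large a share of other scarce genes also had intervals that do not overlap was not computed, so no difference in evx1 is read from them. A further row under the symbol evx1 (ENSDARG00000100087), not used by the rule, held 1 read in control and 0 reads in treated embryos.

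The evx2 gene (ENSDARG00000059255), a relative expressed in spinal cord and fins at later stages, was listed at authors' means of 1.59 (control) and 0.255 (treated). These means stand for 6 or 7 reads in the control pools and 1 read in the treated pools. The exact 95% Poisson intervals, from 2.20 to 14.4 reads and from 0.0253 to 5.57 reads, overlapped. Overlap of intervals is not a test, so whether evx2 differed between the groups was not settled.

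The cdx1b gene (ENSDARG00000116139), the caudal gene of the endoderm and gut, was listed at 0.305 in control embryos, the worth of 1 read in 1 pool. It was listed at 0 in treated embryos, or 0 reads, for which the exact 95% Poisson interval reaches up to 3.69 reads over the 4 pools. No ratio was taken for evx1, evx2 and cdx1b.

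**Figure D2:**
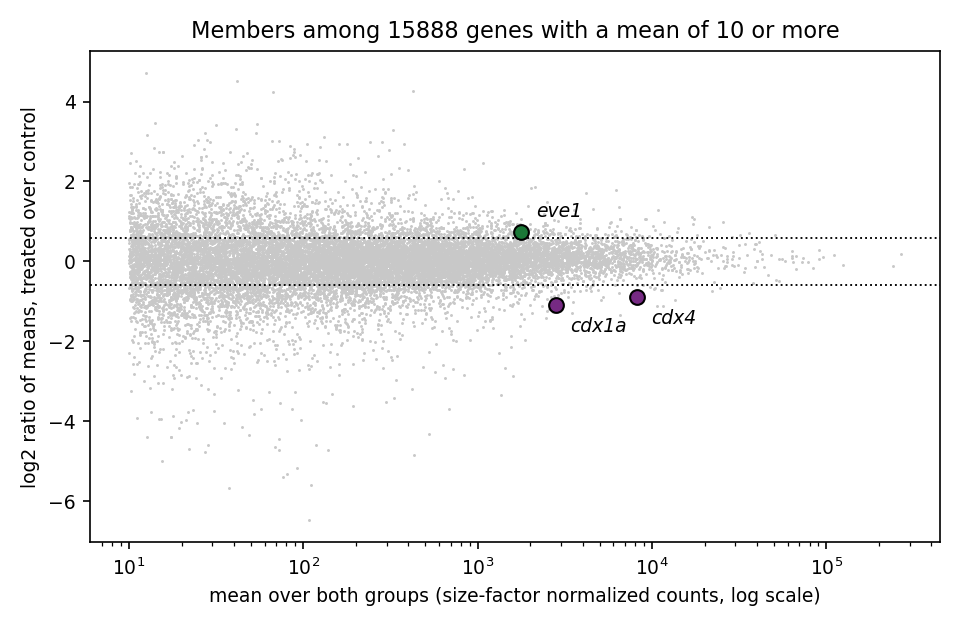
Log2 ratio of the treated to the control mean against the mean over both groups on a logarithmic axis, for 15888 genes (grey points), with the 3 members above the minimum mean in colour and dotted lines at 1.5-fold. The points of cdx1a (-1.09) and cdx4 (-0.88) lie at the lower edge of the cloud of equally abundant genes and eve1 (0.74) lies just above the upper line.

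Caudal proteins are known as activators of hox genes, which give cells their position along the trunk. Of 48 hox genes in the table, 17 had a mean of 10 or more, and 16 of these were lower and 0 were higher, against a background of 15.1% lower. Genes with little RNA in treated embryos passed the minimum through their control means, so the counts of lower hox genes are partly fixed by the minimum. The median log2 ratio of these 17 hox genes was -4.02, further from 0 than that of cdx4 or cdx1a. Several treated hox means were near the 1 added to each mean (0.714 for hoxb10a, 0.994 for hoxa9a), so the sizes of these ratios depend on it. The counts of lower hox genes stayed the same with 10 added. In paralog groups 5 to 9, which act in the trunk, all 10 genes with a mean of 10 or more were lower. Each had a treated mean under 10 and passed through its control mean, so this count is largely fixed by the minimum. Their log2 ratios lay between -5.59 (hoxb9a) and -2.91 (hoxb5b). Of these genes hoxc8a, the most abundant, had means of 228 (control) and 8.47 (treated). In groups 1 to 4, which act in the hindbrain and anterior trunk, 5 of 6 were lower. The exception was hoxc1a, with means of 29.6 and 26.6. The most abundant, hoxb1b, had means of 2491 (control) and 244 (treated). The lowest log2 ratio of these groups was that of hoxc3a, -6.47, with means of 213 and 1.41. In groups 10 to 13, which act in the tail, 1 of 18 genes had a mean of 10 or more, and this gene, hoxb10a, had a log2 ratio of -4.69.

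The even-skipped genes of vertebrates lie at the ends of hox clusters. In the RefSeq gene table of the assembly GRCz12tu, used here for gene order only, eve1 was next to hoxb13a, evx1 next to hoxa13a and evx2 next to hoxd13a. The neighbours below were chosen after the values were seen. All 11 hox genes that follow eve1 in its cluster were found, and 7 of them had a mean of 10 or more. These 7 were all lower in treated embryos, against a background of 15.1% lower. Their log2 ratios ran from -5.59 for hoxb9a to -1.10 for hoxb1a, a gene of the hindbrain. Several, such as hoxb9a (217 in control and 3.53 in treated embryos), passed the minimum through their control means. The minimum thus favours genes that are high in control embryos, and the count of 7 lower genes is partly fixed by it. The eve1 gene at the end of this row went against each of these 7 genes.

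The gene between eve1 and hoxb10a, hoxb13a (ENSDARG00000056015), known from the growing tail, was scarce, with a higher mean in treated embryos. Its authors' means were 1.70 (control) and 6.39 (treated), or 6 or 7 reads against 26 to 29 reads. The exact 95% Poisson intervals for counting error were 2.20 to 14.4 and 17.0 to 41.6 reads. As for evx1, they leave out the spread between pools and have no share over other scarce genes beside them, so no difference is read from them. The other 3 hox genes of the row under the minimum mean had lower means in treated embryos. On the far side of eve1, the 4 nearest protein-coding genes stayed within 1.5-fold, among them the ATP synthase gene atp5mc1 next to eve1, with means of 484 and 485. In the row beside evx1, hoxa3a could not be matched by symbol. Of the hox genes found there, hoxa9a was the 1 with a mean of 10 or more (log2 ratio -4.77), and beside evx2 there were 0.

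**Figure D3:**
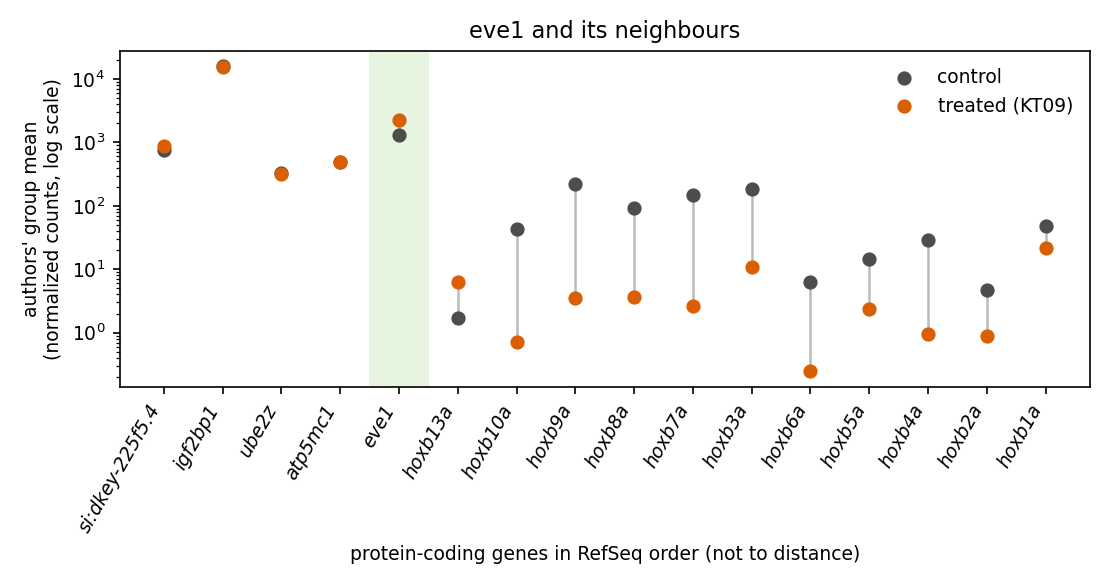
Authors' group means on a logarithmic axis for eve1 (green band), the 4 protein-coding genes before it and the hox genes after it, in RefSeq order and not to distance, with grey points for control and orange points for treated embryos. Among eve1 and the hox genes, the treated point is the higher one in eve1 and hoxb13a and the lower one in every hox gene from hoxb10a to hoxb1a. The 4 genes before eve1 stayed within 1.5-fold.

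No hox gene was among the 4 nearest protein-coding genes on either side of a caudal gene in that table, where the 4 after cdx1a could not be matched by symbol. The gene before cdx4, chic1, was higher (control mean 85.1, treated mean 140) and the gene after it, the endothelial receptor gene kdrl, was lower (20.0 and 11.8). The gene before cdx1a, the growth factor receptor gene pdgfrb, was lower too, with means of 49.2 and 14.1. Further out, slc25a5, slc25a43, lnx2b and dlg3 by cdx4 and hmgxb3 and slc35a4 by cdx1a stayed within 1.5-fold. The gene gdpd2 by cdx4 was higher (66.4 and 158). Near cdx1b, pdlim4 was lower (24.2 and 12.7), while sra1, ndufa2 and ik stayed within. Over all 15888 genes, 28.9% passed 1.5-fold in either direction.

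Genes that act with the caudal and even-skipped genes in tail formation are given by list. Among 10 Wnt, Fgf and Bmp ligands, which induce the posterior body, 8 had a mean of 10 or more, 3 were higher and 1 was lower. Their median log2 ratio was -0.0087. Of all 15888 genes, 13.8% were higher and 15.1% lower. The higher ligands were bmp7a and bmp4, with log2 ratios of 0.91 and 0.68, and fgf3 with 1.56 (51.5 in control and 153 in treated embryos). Other ligands stayed within 1.5-fold, namely bmp2b (0.22), fgf8a (-0.53), fgf24 (-0.24) and wnt3a (-0.46). The lower one was wnt8a, the Wnt ligand of the margin, which stood at the threshold with means of 1214 and 807 and a log2 ratio of -0.59.

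Among 10 effectors and readouts of Wnt signaling, 1 was higher and 2 were lower, with a median log2 ratio of -0.23. These counts are near the shares over all 15888 genes, 13.8% higher and 15.1% lower. The higher one was the beta-catenin gene ctnnb2 (log2 ratio 0.74), while ctnnb1, the most abundant of the list, had 0.26. The lower ones were tcf7l2 and sp5a, a DNA-binding partner of beta-catenin and a Wnt target, with log2 ratios of -0.90 and -0.61. The sp5a gene lay close to the threshold, at 1.53-fold.

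The transcription factors of tailbud and posterior mesoderm were split evenly, with 2 of 6 higher and 2 of 6 lower. The higher ones were tbxta (no tail), with means of 5375 (control) and 9804 (treated), and tbx16 (spadetail), with 6927 and 10695. The lower ones were tbx6, with 2439 and 667, and msgn1, with 3800 and 2180, both genes of paraxial mesoderm. The log2 ratios were 0.87 (tbxta), 0.63 (tbx16), -1.87 (tbx6) and -0.80 (msgn1), while tbx16l (-0.55) and tbxtb (0.048) stayed within 1.5-fold. The even split depended on the scaling. With both groups scaled to the same sum of means, 1 of the 6 was higher and 3 were lower. Over all 15888 genes, 13.8% were higher and 15.1% lower. With genes called on both sides, eve1, cdx4 and cdx1a each share a direction with some of them, so no likeness is drawn.

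The ventral homeobox repressors vent, ved and vox, which like eve1 respond to Bmp, had log2 ratios of 0.73, 0.49 and 0.20, with vent the 1 gene past 1.5-fold. Among 8 genes of retinoic acid metabolism and its receptors, 7 had a mean of 10 or more, 3 were lower and 1 was higher, and the median was -0.53. The shares over all 15888 genes were 15.1% lower and 13.8% higher. The breakdown enzyme gene cyp26a1 was lower (4901 in control and 2003 in treated embryos), as were cyp26c1 (35.9 and 18.1) and the receptor gene rarga (442 and 80.9), while the receptor gene rargb was higher (11.4 and 25.9).

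Blood and endoderm are tissues in which cdx4 and cdx1b are known to act. Of 8 blood and vessel regulators, 4 had a mean of 10 or more and 0 were higher or lower, with log2 ratios between -0.36 (gata2a) and 0.48 (lmo2), and sall4, the most abundant, at 0.39. The rest, etv2, tal1, gata1a and fli1a, were under the minimum mean. Whether blood differed between the groups can therefore not be read from this list. Of 7 endoderm factors, 2 were higher and 0 were lower, where 28.9% of all 15888 genes passed 1.5-fold in either direction. The higher ones were mixl1 (116 in control and 591 in treated embryos) and sox32 (1309 and 2168), while gata6, the most abundant, and gata5 had log2 ratios of 0.53 and -0.33.

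**Figure D4:**
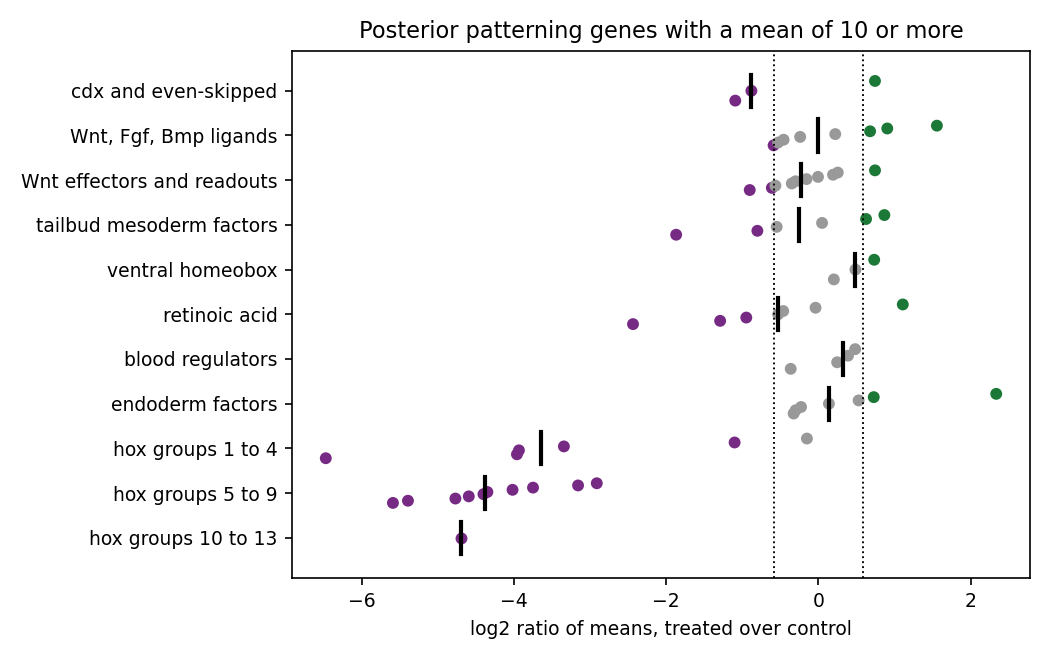
Log2 ratio of the treated to the control mean for the genes of each list with a mean of 10 or more, 1 point a gene, green past 1.5-fold higher, purple past 1.5-fold lower, grey between, with a black bar at the list median and dotted lines at 1.5-fold. The hox genes lie furthest to the left, with medians of -3.64, -4.37 and -4.69, while the lists of ligands, Wnt effectors and mesoderm factors spread to both sides.

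Markers of other cells in the pools moved beside these genes as follows, and their part in the results was not tested. The counts stand beside 13.8% higher and 15.1% lower over all 15888 genes. Of 5 organizer and notochord markers and of 6 markers of the enveloping layer, 0 were past 1.5-fold. Their summed means were 9505 and 198621 in control and 10796 and 206388 in treated embryos. Of 5 germ cell markers 3 were higher and 0 lower, from a summed mean of 1596 to 3377. Of 4 yolk syncytial layer genes, 3 had a mean of 10 or more and 1 of them, hhex, was higher. The hhex gene stood at the threshold, at 1.504-fold, with means of 46.4 and 70.3. The summed means of the 4 genes were 2638 and 3464. Of 5 neural plate markers, 1 (sox3) was higher and 1 (otx2b) lower, and the summed means were 24385 and 29685. The most abundant of them was zic2b, with means of 10403 and 13682. Outside this list, zic1 (610 and 55.8) and fezf2 (830 and 28.0), also neural genes, were lower. Further neural genes were not counted in either direction, so the sums do not describe the neural plate as a whole. None of these markers was at 0 in both groups.

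The means of all genes summed to 16159905 in control and 16913446 in treated embryos. The relative depth of the libraries, read from the worth of 1 read, ranged from 0.820 to 1.14 in control and from 0.980 to 1.16 in treated pools. The library names in the labels of replicate 4 of both groups follow those of the other group, while the titles and treatment fields give the groups used here. In the table, 664 genes differed by more than 3-fold, which is the most that 2 means of 4 pools could differ if 1 pool in each came from the other group and pools of a condition were alike.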

How the data were processed

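RNA from 4 control and 4 treated pools was sequenced by the authors from stranded mRNA libraries, in 1 direction over 100 bp, and counted per gene by nf-core rnaseq 3.0 (genome build GRCz11, annotation of Ensembl release 103). The authors' deposited table gives signal values: counts divided by DESeq2 size factors and averaged over each group or all pools. Its other columns hold the authors' own fold changes, standard errors, statistics and p-values, which were not used. The labels give no relation between pools of the same number, and none was used.

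From the group means, log2((treated + 1)/(control + 1)) was computed for genes with a mean of 10 or more and called past 1.5-fold. The call was first tested on simulated counts with 2-fold changes and Poisson error only. That test covers neither the spread between real pools nor changes near 1.5-fold. The software was scipy 1.17.1, numpy 2.4.6, matplotlib 3.10.9 and pandas 2.3.3 under Python 3.11.15. The most frequent low values, 4 in each group, were taken as 1 read in 1 pool. Of 131 listed symbols, 130 were matched as written and 1 by a RefSeq synonym. All members were named. Of each other list except the cell markers, the most abundant gene and those with the highest and lowest log2 ratio were named. The lists of cell markers were given mainly as counts and sums. Further genes were named after their values were seen. The members and lists were chosen with earlier results of these data known. Alternatives were other pseudocounts, scalings, minimum means, folds and the sum of a symbol's rows.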

Additional observations from a re-analysis of the deposited data

How the results depend on the processing

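The log2 ratios of the 3 abundant members moved by less than 0.1 under other pseudocounts, scalings and the sum of all rows of a symbol, from -1.16 to -1.09 for cdx1a, from -0.95 to -0.88 for cdx4 and from 0.68 to 0.74 for eve1. At 2-fold, 1 member (cdx1a) was lower and 0 were higher, since cdx4 and eve1 lie between 1.5-fold and 2-fold. Of the related lists, 19 genes were lower and 3 higher at 2-fold. The lower ones included 5, 10 and 1 hox genes of groups 1 to 4, 5 to 9 and 10 to 13. With no minimum mean, 2 members were higher and 3 lower, evx1 and evx2 being added. Over the related lists 45 genes were then lower and 16 higher, where the main counts were 24 and 10. Hox genes made up 16 of the 24 lower genes and 0 of the 10 higher in the main counts. Without the minimum, the lower hox genes numbered 11 (groups 1 to 4), 17 (groups 5 to 9) and 7 (groups 10 to 13). Over all genes, the main counts of 2405 lower and 2191 higher became 4286 and 4395 with no minimum mean, 984 and 927 at a mean of 100, 3721 and 3573 at 1.3-fold, and 1034 and 919 at 2-fold. With a mean of 100, 11 genes of the related lists were lower and 9 higher. The lower hox genes then numbered 2 (groups 1 to 4), 2 (groups 5 to 9) and 0 (groups 10 to 13). Their main counts were 5, 10 and 1. With a mean of 1000, chosen after seeing the data, 156 genes were lower and 248 higher, and in the related lists 6 and 6. No paired analysis was possible because the columns used are means over each group. Values per pool were not rebuilt from these means, so leaving out single pools was not run. The differences cover neither variation between pools nor stage.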
